A study of Homo sapiens with 8 samples.

Results

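Human chromosome 19 holds large groups of neighbouring zinc-finger (ZNF) genes, and the CTCF peaks inside 5 of these gene clusters are described here. The members are the peaks centred in 5 windows of hg19, defined by position with earlier results of these data known: chr19:19800001-24500000 (called 19p12 below), chr19:36700001-38400000 (19q13.12), chr19:43900001-45000000 (19q13.31), chr19:52300001-54000000 (19q13.41) and chr19:56000001-59128983 (19q13.43), the last without chr19:57200001-57450000. They numbered 107 of the 47470 peaks of control cells and 95 of the 29558 peaks of CBL0137-treated cells. The cells were HT1080, a human fibrosarcoma line with an activated ras oncogene. CBL0137 is a curaxin, a small molecule that binds DNA and loosens its contact with histones, and the treated cells had received 3 µM for 6 h. The control cells were HT1080 without CBL0137. Chromatin bound by CTCF was immunoprecipitated in 2 biological replicates per condition and sequenced beside 2 inputs per condition, which makes 8 libraries, and the question was which CTCF sites are kept, lost or gained under the drug.

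CTCF is itself a zinc-finger protein, which binds a long DNA motif with several of its fingers and marks the borders of chromatin loops and domains. Most genes of the clusters encode C2H2 zinc-finger proteins, many with a KRAB domain, which calls in TRIM28, the histone methyltransferase SETDB1 and HP1 proteins to silence transposable elements. The genes arose by tandem duplication, so that neighbours resemble each other, and their last exons, which encode the arrays of fingers, carry the silent mark H3K9me3 in many cell types. A gene was counted as a ZNF gene here if its symbol starts with ZNF, ZFP, ZSCAN, ZIM, ZIK, ZKSCAN or ZBTB and a number. By this rule the clusters held 194 ZNF genes and 75 other protein-coding genes. The label fitted 19p12 most closely, with 36 ZNF and 3 other coding genes, and 19q13.31 and 19q13.43 least, with 22 and 17, and 69 and 42, respectively.

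In both lists a fold enrichment states how far the ChIP exceeded the input at a peak, over both replicates. The lists have no header, and the fold enrichment was identified by the position of its column, as in the broadPeak format. A control peak is called kept if a peak of treated cells overlaps it by any length and lost if none does, and a peak of treated cells is called arisen if no control peak overlaps it. No list holds a value per replicate, so no difference below has a test across replicates. The Wilson 95% intervals of shares and the Newcombe 95% intervals of differences between shares cover counting error only. Neighbouring peaks share a chromatin region and are not independent.

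The sequence under the peaks is shown first, for the peaks at ZNF gene starts and last exons and for the strongest lost peaks, because fates differed between sites with closely similar letters. The 12-base core of the CTCF consensus was searched on both strands within 200 bp of each peak centre, and a match has at most 1 mismatch. Of the 107 control peaks, 68 held a match (63.6%, 54.1% to 72.1%), against 49.0% of all control peaks, and 34 of the matches lay on each strand. The matches below come from the GRCh37 reference, 5′ to 3′ on the strand named, with the 12-base core in capitals.
ZNF568/ZNF829 start, kept, chr19:37407380-37407409, plus strand: cgagtccccGCAGCAGGGGGCgagcaaggg
ZNF616 start, kept, chr19:52642639-52642668, plus strand: gcgcggaggACACTAGGTGGCgcgggggac
ZNF329 start, kept, chr19:58666593-58666622, minus strand: tccctgctgCCACTGGGGGGCgccatcgtc
ZNF274 start, kept, chr19:58693444-58693473, plus strand: tgtacacgaCCACCAGAGGGAggcagaggg
ZNF460 start, lost, chr19:57791324-57791353, plus strand: aaaggaggcCCAATAGAGGGCggtctgtcc
ZNF814 start, arisen, chr19:58400402-58400431, plus strand: aaatggccgCCACCAGAGGGCgccggaagt
ZNF875 last exon, kept, chr19:37853810-37853839, plus strand: cctcattacCCACCAGAGGGCgcacactgg
ZNF575 last exon, kept, chr19:44039797-44039826, plus strand: acgcagccaCCACCAGGTGGAgcacaaggg
ZBTB45 last exon, kept, chr19:59025429-59025458, plus strand: cagggtgcgCCGCCAGGTGGCgctccagca
ZNF576 last exon, arisen, chr19:44103977-44104006, plus strand: ggggccatgGCACTAGATGGCactagtccc
ZSCAN5A intron, lost, chr19:56845062-56845091, minus strand: ggcatactaCCAGCAGATGGCatgcatgaa
near ZNF91, lost, chr19:23623814-23623843, minus strand: gtctaaagtCGACCAGGTGGCtcttgccgg
The arisen site at the ZNF814 start and the kept site in the last exon of ZNF875 hold the identical 12 bases with no mismatch, and the strongest lost site inside a ZNF gene, in ZSCAN5A, also has no mismatch. In the clusters 19 control peaks had a core without a mismatch within 200 bp of the centre, of which 16 were kept and 3 lost. For the lost peak in RPSA2 (chr19:24006801-24006900) this core starts at position 24006908, just outside the peak. Over the whole list 12.7% of the control peaks with such a core were lost.

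CTCF peaks were sparser in the clusters than on the rest of chromosome 19, and densities on other chromosomes were not compared. The control list held 8.90 peaks per Mb there, against 33.9 per Mb on the rest of chromosome 19 (1476 peaks, without the 3 of the left-out stretch, which the later counts for the rest of the chromosome include). Set against genes, there were 39.8 control peaks per 100 protein-coding genes in the clusters and 122 on the rest of the chromosome. The clusters differed widely among themselves. The densities were 3.23 per Mb in 19p12 (15 peaks), 3.53 in 19q13.12 (6 peaks) and 5.88 in 19q13.41 (10 peaks), but 20.0 in 19q13.31 (22 peaks) and 18.8 in 19q13.43 (54 peaks). The GC content of the clusters was 43.4% against 49.8% on the rest of the chromosome, and 95.7% against 96.3% of their 75-base stretches occurred only once in the genome. Under the member peaks themselves the median was 100%. The part of GC content and of sequence copies in the lower density was not tested.

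Long stretches without any control peak lay almost entirely in these clusters. Neighbouring control peaks on chromosome 19 were 16.6 kb apart in the median, and only 5 intervals exceeded 500 kb. One of the 5 spans the centromere, and the other 4 start or end in 19p12, 19q13.12 or 19q13.41. The longest of these 4, at chr19:20108675-21385875, runs over 1277 kb and 10 gene starts, all of ZNF genes. The next, at chr19:21666850-22728750, covers 1062 kb and 8 gene starts, again all of ZNF genes. The interval at chr19:36681525-37407375 holds 15 ZNF gene starts among 16, and that at chr19:52968275-53580400 holds 11 among 14. In 19q13.31 the peaks were divided unevenly. The first 500 kb held 20 control peaks and 4 ZNF gene starts, in a stretch with PLAUR, the urokinase receptor, KCNN4, a calcium-activated potassium channel, and XRCC1, a scaffold of DNA single-strand break repair. The remainder held 2 control peaks and 18 ZNF gene starts. Over all clusters the median was 3 control peaks in the 9 full 500-kb stretches with 10 or more ZNF gene starts and 2 in the 14 with fewer.

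**Figure D1:**
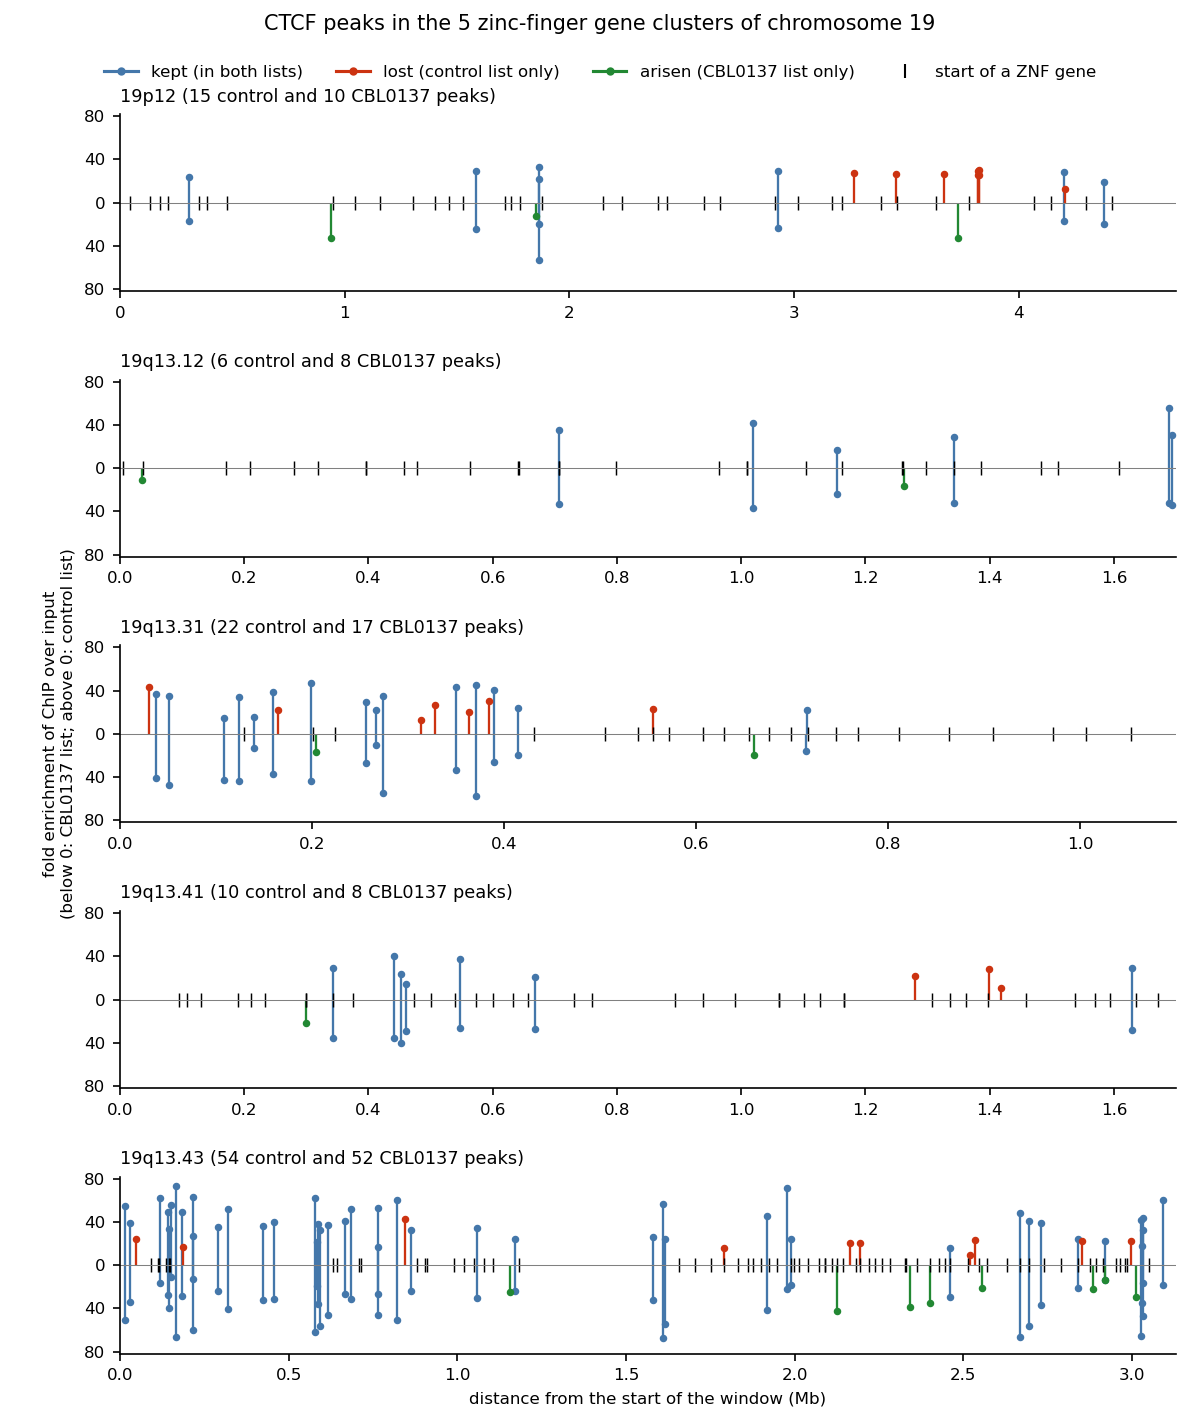
Peaks along the 5 clusters, by distance from the start of each window (Mb). Stems above 0 give the fold enrichment of control peaks and stems below 0 that of peaks of CBL0137-treated cells, coloured by fate, and black ticks mark the starts of ZNF genes. The 7 lost peaks towards the right end of 19p12 can be seen, as can the 20 of 22 control peaks of 19q13.31 that lie in its first 500 kb.

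Fewer ZNF genes of the clusters than of other chromosomes had CTCF at the start. A control peak lay within 1 kb of the start of 12 of the 194 genes (6.19%, 3.57% to 10.5%), against 67 of 344 ZNF genes on other chromosomes (19.5%), a difference of -13.3 points (-18.5 to -7.52). At the start the clusters did not stand apart from their surroundings, since 7 of 73 ZNF genes on the rest of chromosome 19 (9.59%, difference -3.40 points, -12.7 to 3.10) and 6 of 75 other coding genes of the clusters (8.00%) had a peak there. In the last exon, 4 of 194 ZNF genes held a control peak (2.06%, 0.805% to 5.18%), against 26 of 344 on other chromosomes (7.56%), 3 of 73 ZNF genes on the rest of chromosome 19 (4.11%, difference -2.05 points, -9.45 to 2.08) and 1 of 75 other coding genes of the clusters (1.33%). Anywhere in the gene or within 1 kb of it, 30 of 194 had a control peak (15.5%), against 159 of 344 on other chromosomes (46.2%), 21 of 73 on the rest of chromosome 19 (28.8%) and 26 of 75 other coding genes of the clusters (34.7%). This share was lower than that of each of the other sets, by 13.30 points for the rest of chromosome 19 (-25.4 to -2.52 for clusters minus rest). The median gene length was 28.2 kb for the ZNF genes of the clusters, 26.0 kb for those on other chromosomes and 20.6 kb for the other coding genes, and its part in the shares was not tested.

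**Figure D2:**
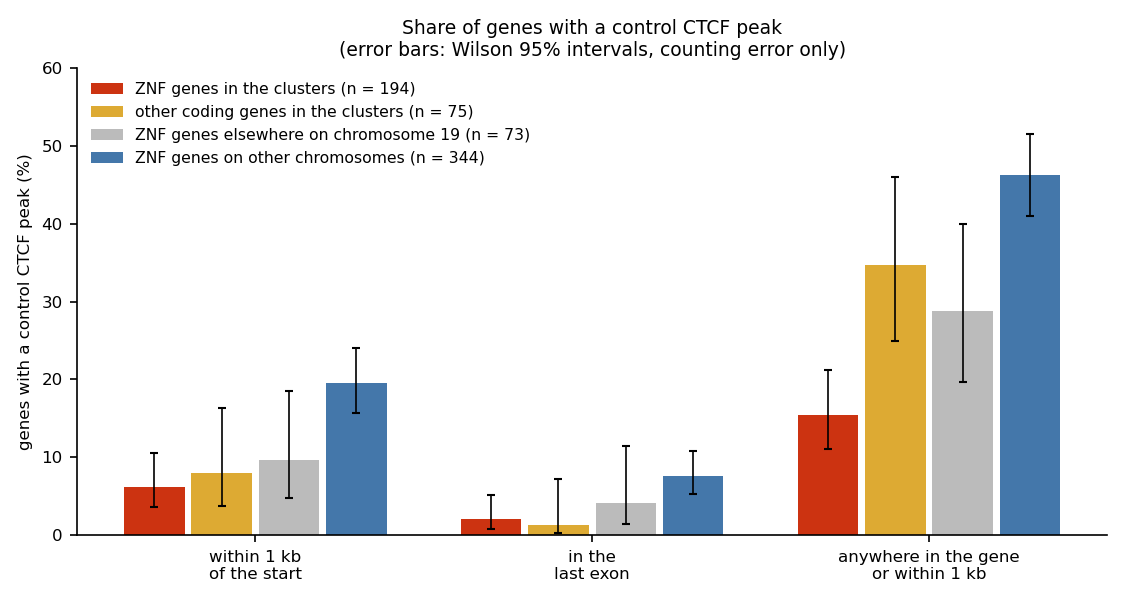
Share of genes (%) with a control CTCF peak within 1 kb of the start, in the last exon, or anywhere in the gene or within 1 kb, for 4 sets of genes. Error bars are Wilson 95% intervals. The ZNF genes of the clusters have the lowest share of the 4 sets at the start (6.19%) and over the whole gene (15.5%), but at the start their interval overlaps that of the other sets on chromosome 19.

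The last exons were not rich in core matches either. The 194 last exons span 683073 bp and held 24 matches in 19 genes, or 0.0351 per kb, against 0.0545 per kb over the windows of the clusters. Of the 24 matches 3 lay under a control peak and 4 under a peak of treated cells. The 3 occupied matches, in ZNF875, ZNF575 and ZBTB45, were all in coding sequence, as the files' hg19 positions and the GENCODE gene models place them. These 3 peaks were kept, with control fold enrichments of 16.9, 15.6 and 42.1, respectively. The fourth last-exon peak, in ZSCAN22 (chr19:58850701-58850800, fold enrichment 22.3), was centred in the 3′ untranslated part, held no match and was lost. ZNF875 contained the only exact match in any of the 194 last exons.

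Of the 107 control peaks, 28 were lost (26.2%, 18.8% to 35.2%), where 42.9% of all control peaks were lost. This share was 17.5 points lower than on the other chromosomes (43.6%, difference -24.9 to -8.42), but did not stand apart from the rest of chromosome 19, where 307 of 1479 peaks were lost (20.8%, difference 5.41 points, -2.29 to 14.7). Under the stricter rule that the overlap exceeds 50% of the larger peak, which the study used for remaining peaks, 40 of 107 were lost (37.4%, 28.8% to 46.8%). The share was 50.7% for all control peaks and 28.3% on the rest of chromosome 19 (26.1% to 30.7%). The latter share lay just below the interval of the clusters, though the 2 intervals overlap. Whether the clusters stood apart from the rest of chromosome 19 was thus borderline and depended on the overlap rule. In treated cells 16 of the 95 peaks had arisen (16.8%, 10.6% to 25.6%), where 8.07% of all peaks of treated cells had. On the rest of chromosome 19, 212 of 1386 had arisen (15.3%), within counting error of the clusters. The share in the clusters exceeded that of the other chromosomes (7.69%) by 9.16 points (2.95 to 17.9). Under the stricter overlap rule 28 of 95 had arisen (29.5%, 21.2% to 39.3%), against 20.8% of all peaks of treated cells and 23.5% on the rest of chromosome 19. With an FDR of at most 1e-05 in both lists 9 of 57 had (15.8%, 8.54% to 27.4%), against 7.15% over the whole list. On the rest of chromosome 19, 132 of 1011 had then arisen (13.06%), a share inside the interval of the clusters.

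Weak peaks were lost most often. The whole control list was divided into 3 groups of equal size, weak, middle and strong, at fold enrichments of 22.8 and 34.8. In the clusters 13 of 26 weak peaks were lost, 13 of 39 middle ones and 2 of 42 strong ones. On the other chromosomes the shares were 76.1%, 39.3% and 14.7%. The interval of the clusters lay below this value among the weak peaks (32.1% to 67.9%) and held it among the middle and strong ones. On the rest of chromosome 19 the shares were 54.8%, 22.3% and 4.88%, each inside the interval of the clusters. With peaks of the rest of chromosome 19 weighted to the same fold enrichment (10 groups), the lost share there was 23.3%, and the clusters exceeded it by 2.91 points. With peaks weighted to the same GC content instead, the difference was -0.075 points.

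**Figure D3:**
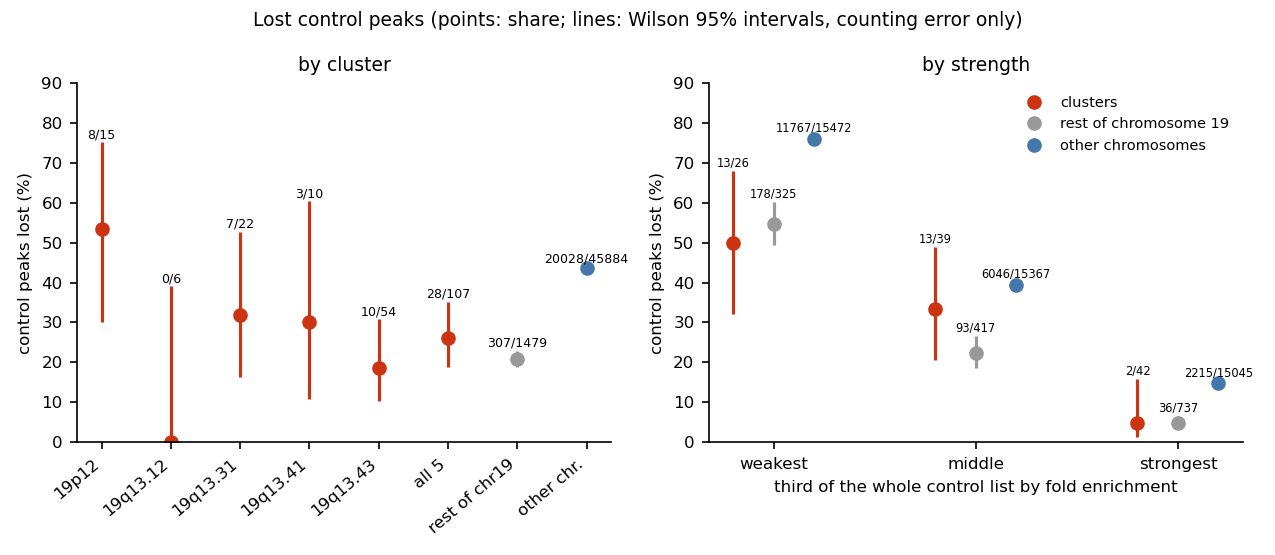
Share of control peaks lost (%), by cluster on the left and by strength on the right, for 3 groups of equal size of the whole control list ranked by fold enrichment. Points are shares with lost and total counts written above, and lines are Wilson 95% intervals. In 19p12, 8 of 15 peaks were lost and in 19q13.12 0 of 6, and only 2 of the 42 strongest cluster peaks were lost.

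The clusters did not lose CTCF alike. In 19p12, beside the centromere, 8 of 15 control peaks were lost (53.3%, 30.1% to 75.2%), against 20 of 92 in the other clusters together (21.7%), a difference of 31.6 points (6.52 to 54.6). The interval of 19p12 holds the 42.9% of all control peaks. Its control peaks had a median fold enrichment of 26.7 and a GC content of 41.6%, against 36.6 and 52.7% in 19q13.43, and the part of these in its losses was not tested. In 19q13.12 none of the 6 was lost, a count that allows a share of up to 39.0% by the Wilson interval. Between them lay 19q13.31 with 7 of 22 lost (31.8%), 19q13.41 with 3 of 10 (30%) and 19q13.43 with 10 of 54 (18.5%), whose intervals overlap. Of the 8 losses in 19p12, 7 were neighbours in an unbroken run at chr19:23065701-23623950, singled out after its values were seen. The run covers 558 kb on both sides of ZNF91, which silences SVA retrotransposons. Its peaks are not evenly spread. Those at chr19:23619201-23619450, chr19:23619951-23620050, chr19:23622501-23622750 and chr19:23623701-23623950 crowd at its end. The run, and the lost share of 19p12, thus hold fewer separate places than peaks. All 7 lay outside coding genes, their fold enrichments were alike, from 25.4 to 30.5, and 6 of the 7 held a core match. Only 1 of the 7 overlapped a site that the direct comparison of the conditions placed higher in control cells. A single peak arose in this stretch, inside ZNF91 (chr19:23528751-23528950, fold enrichment 32.4 in treated cells). A shorter run of 3 losses lay at chr19:53580351-53718450 in 19q13.41, one of them inside ZNF160.

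By any overlap, the losses within the clusters were more frequent between genes than at ZNF genes. Of the 41 control peaks outside every protein-coding gene, 16 were lost (39.0%, 25.7% to 54.3%), against 6 of the 35 peaks at the start, in the last exon or elsewhere in a ZNF gene (17.1%, 8.10% to 32.7%), a difference of 21.9 points (1.38 to 39.6). On the rest of chromosome 19, 117 of 498 peaks between genes were lost (23.5%), 15.5 points fewer than in the clusters (1.60 to 31.2). Over the whole control list 45.1% of the peaks between genes were lost, a share inside the interval of the clusters. At ZNF genes of other chromosomes 121 of 321 peaks were lost (37.7%), 20.6 points more than at those of the clusters (-31.1 to -4.19 for clusters minus others). At ZNF genes on the rest of chromosome 19, 9 of 33 were lost (27.3%), and the difference of -10.1 points from these (-29.3 to 9.63) held 0. The between-gene share leans on 19p12, which contributed 7 of the 16 losses and 10 of the 41 peaks. Those 7 losses include the crowded peaks near ZNF91 named above. The peaks between genes had a median control fold enrichment of 28.7 and those at ZNF genes one of 29.3.

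At the starts of ZNF genes 8 of 11 control peaks were kept and 3 lost (27.3%, 9.75% to 56.6%), where 25.3% of the peaks at ZNF starts over the whole list were lost. The strongest was at ZNF865 (chr19:56117551-56117900, fold enrichment 62.7), followed by ZNF329 (48.5) and ZNF274 (40.6). ZNF274 encodes a protein that brings SETDB1 to the 3′ ends of other ZNF genes. One peak, with a fold enrichment of 34.9, served the divergent starts of ZNF568 and ZNF829. The remaining kept peaks were at ZNF616 (29.1), ZNF540 (29.0), ZNF772 (24.4) and ZNF256 (16.3). The 3 lost peaks, at ZNF221 (23.5), ZNF551 (20.6) and ZNF460 (15.5), were weaker than 7 of the 8 kept ones, the exception being ZNF256. Of the 36 ZNF genes of 19p12 none had a peak at its start in either list.

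Of the 16 peaks that arose in treated cells, 13 were at ZNF genes. Of the 42 peaks of treated cells placed at ZNF genes of the clusters, 13 had arisen (31%, 19.1% to 46.0%), against 3 of the 53 placed elsewhere in the clusters, a difference of 25.3 points (9.95 to 40.8). At ZNF genes of other chromosomes 23 of 223 had arisen (10.3%), 20.6 points fewer than in the clusters (7.87 to 36.1). On the rest of chromosome 19, 1 of 25 peaks at ZNF genes had arisen, 26.95 points fewer than in the clusters (7.39 to 42.4). With an overlap of over 50% of the larger peak required, 21 of the 42 peaks at ZNF genes of the clusters had arisen (35.5% to 64.5%). The counts were 52 of 223 on other chromosomes (23.3%) and 1 of 25 on the rest of chromosome 19 (4%, 0.710% to 19.5%). With an FDR of at most 1e-05 in both lists, the count in the clusters fell to 6 of 18 (33.3%, 16.3% to 56.3%), against 12 of 153 on other chromosomes (7.84%). On the rest of chromosome 19 it was then 2 of 18 (11.1%, 3.10% to 32.8%), with an interval that overlaps that of the clusters. None of the 25 peaks between genes had arisen, which allows a share of up to 13.32% by the Wilson interval, and the share between genes over the whole list was 5.23%. Counted per gene, no such difference from other chromosomes was seen, since 14 of 194 ZNF genes of the clusters had an arisen peak (7.22%) and 24 of 344 on other chromosomes (6.98%, difference 0.24 points, -4.05 to 5.30). Of the other coding genes of the clusters 7 of 75 had one (9.33%, difference -2.12 points, -11.3 to 4.44). Among ZNF genes on the rest of chromosome 19 it was 1 of 73 (1.37%, difference 5.85 points, -0.795 to 10.5). Both of these intervals hold 0. The number of ZNF genes of the clusters with any peak was 30 in control and 38 in treated cells.

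The strongest arisen peak lay at the start of ZNF134 (chr19:58125401-58125700, fold enrichment 42.4 in treated cells), without a core match. It was followed by a peak in ZNF587B (39.0), 38 bp from one of the transcript starts of that gene, and by one 42 bp from the start of ZNF814 (34.8). Both held a core without a mismatch. A weaker peak (22.0) arose upstream of the starts of ZNF841 and ZNF432, both on the minus strand, 132 and 159 bp from its centre, and another (17.0) in the 3′ untranslated part of ZNF576. The other arisen peaks at ZNF genes were inside ZNF737, ZNF91, ZNF565, ZNF570, ZNF223, ZSCAN1, ZNF837 and ZNF584. Arisen peaks were narrow, in the clusters as in the whole list, where the median width of arisen peaks was 150 bp as well. Of the 16, 9 were at most 150 bp wide, as were 14 of the 28 lost and 8 of the 79 kept peaks. Within 1 kb of a ZNF transcript start lay 5 of the 16 (31.2%, 14.2% to 55.6%), 13 of the 79 kept (16.5%, 9.88% to 26.1%) and 3 of the 28 lost peaks, with overlapping intervals. The median distance of arisen peaks to the nearest such start was 3622 bp, against 13463 bp for kept and 25576 bp for lost peaks. Of the 16 arisen peaks 6 had a core match (37.5%, 18.5% to 61.4%), against 53 of 79 kept (67.1%) and 15 of 28 lost peaks (53.6%, 35.8% to 70.5%). Among the lost peaks of the other chromosomes 31.5% had one, a share below the interval of the clusters. The GC content over 500 bp was 51.0% in the median for kept, 45.3% for lost and 51.8% for arisen peaks.

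**Figure D4:**
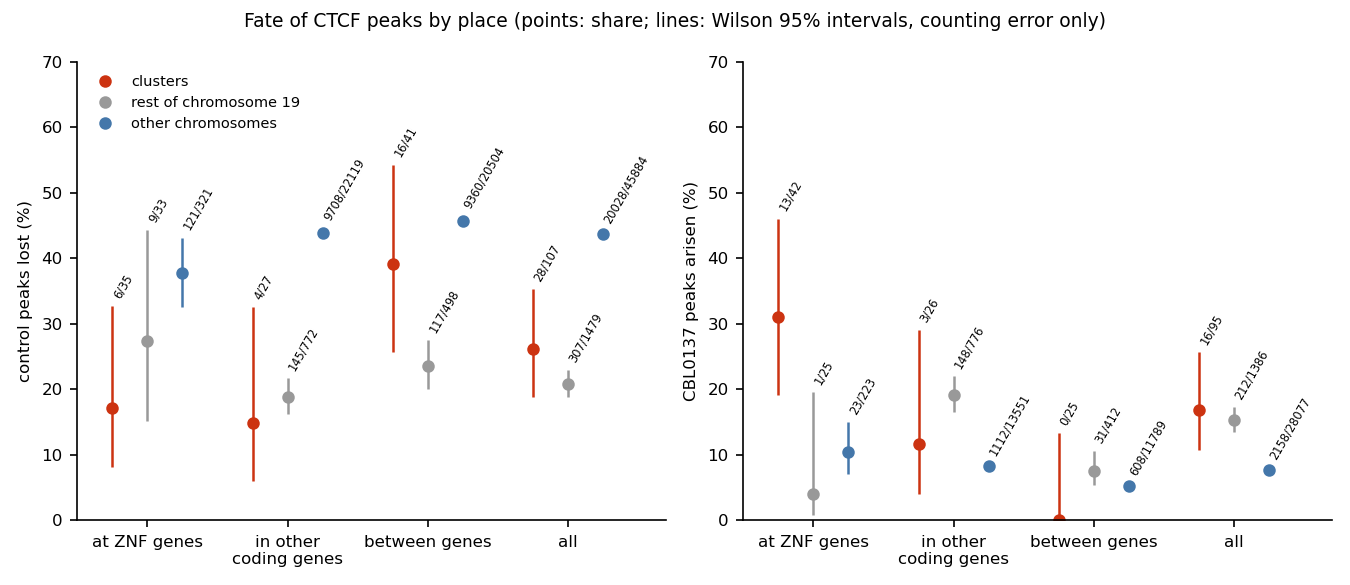
Control peaks lost (%, left) and peaks of CBL0137-treated cells arisen (%, right), by place, in the clusters, on the rest of chromosome 19 and on the other chromosomes. Points are shares with counts written above, and lines are Wilson 95% intervals. Of the places shown for the clusters, the lost share is highest between genes (16 of 41), though not above that of the other chromosomes. The arisen share is highest at ZNF genes (13 of 42), with an interval that overlaps that of other coding genes (3 of 26).

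The strongest peaks of the clusters were kept with few exceptions. The highest control fold enrichment, 73.5, belonged to the start of U2AF2, which encodes a splicing factor (chr19:56165001-56165350), and this peak stood at the 97.8th percentile of the list of treated cells. Between genes, the strongest kept peaks were at chr19:56577801-56578200 (62.3), chr19:59092551-59092900 (60.3) and chr19:57610551-57610900 (57.0). The strongest lost peaks were at chr19:43929801-43930100, between genes (43.3), and in an intron of ZSCAN5A at chr19:56844951-56845250 (42.9). These were the only losses among the 42 strong peaks. By cluster, the highest control fold enrichments were 32.7 in 19p12, 56.01 in WDR87 in 19q13.12, 47.5 in IRGQ in 19q13.31 and 40.5 between genes in 19q13.41, all kept.

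The genes that are not zinc-finger genes held 31 control peaks of the clusters, 4 of them at a start and 27 elsewhere in the gene. At the starts, the peaks of U2AF2 and PHLDB3 were kept and those of KCNN4 (30.4) and SBK2 (23.8) lost. A second peak inside KCNN4 was kept (44.9). PLAUR held 3 peaks with fold enrichments of 29.9, 21.9 and 35.5, all kept. Away from the starts 4 of 27 were lost (14.8%, 5.92% to 32.5%), in RPSA2 (12.2), XRCC1 (22.0), EPN1 (17.0) and SLC27A5 (22.2), all below the median of the cluster peaks (29.9). Among ZNF genes, ZSCAN5A, ZBTB45 and ZSCAN22 carried more than 1 control peak. ZSCAN5A, a SCAN-domain zinc-finger gene, had 5, of which the 4 kept had fold enrichments of 53.1, 16.6, 60.7 and 33.01 beside the lost one of 42.9. ZBTB45, a BTB-domain zinc-finger gene, had 4 and kept all, one of them 950 bp wide, the widest of the clusters.

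The rank of kept peaks differed between the lists. Fold enrichments of the lists cannot be divided by each other, so each peak was ranked within its own whole list. The control list is longer, and its lost peaks were mostly weak, so that a kept peak stands higher in it than among kept peaks alone. Of the 79 kept peaks of the clusters 30 ranked higher in treated cells, against 9530 of the 27107 kept peaks of the genome (35.2%), and the median shift was -6.21 percentile points, against -9.21 over the genome. Ranked among the kept peaks alone, 46 of the 79 stood higher in treated cells, with a median shift of 4.67 points, against 51.2% of those of the genome. The direction of the shift thus depended on the set ranked, and no overall rise or fall is read from it. Single peaks moved far under both rankings. The peak at the ZNF865 start stood at the 97.9th percentile in control and the 20.1st in treated cells (96.5 and 17.8 among kept peaks), and that shared by ZNF580 and ZNF581 at the 95.4th and the 6.15th (92.3 and 5.26). Both overlapped a site placed higher in control cells. The peak at the start of PHLDB3 stood at the 12.6th and the 79.2nd percentile (2.88 and 77.4 among kept peaks) and that at the ZNF256 start at the 16.3rd and the 53.7th (4.25 and 50.6). These examples, ZNF256 included, were picked after their values were seen. Of the kept peaks 38 were narrower in treated cells, 20 wider and 21 of equal width, while over the genome 16916 were narrower and 4073 wider.

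**Figure D5:**
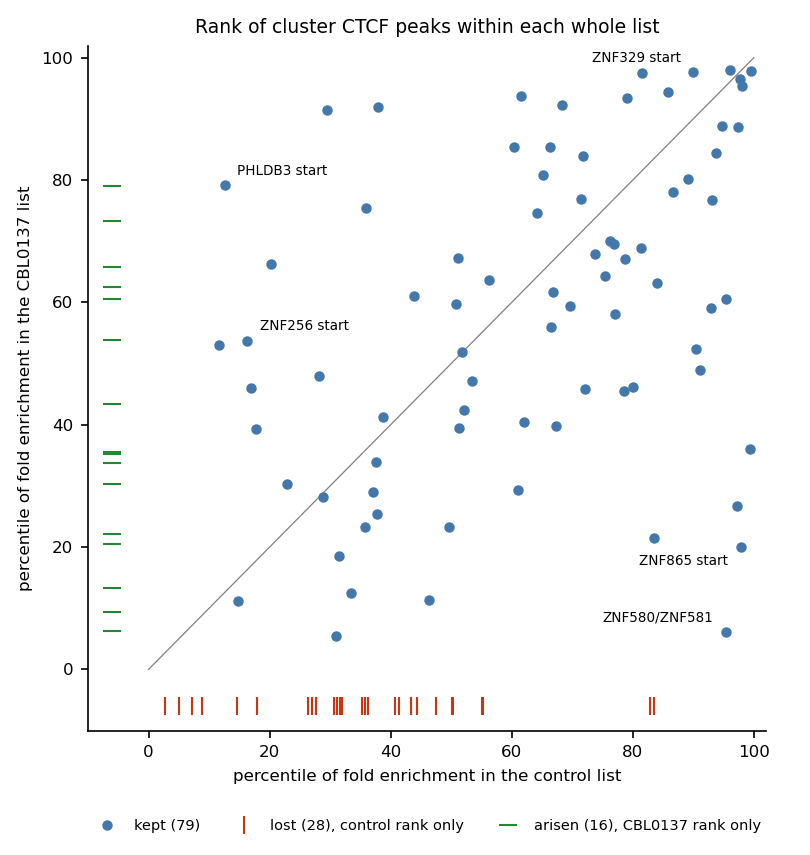
Percentile of fold enrichment of each cluster peak within the whole control list (horizontal) and within the whole list of treated cells (vertical). Points are the 79 kept peaks, the line marks equal rank, and ticks along the axes are the 28 lost and 16 arisen peaks, which have a rank in one list only. The peaks at ZNF865 and ZNF580/ZNF581 lie far below the line, and those at PHLDB3 and ZNF256 far above it.

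The direct comparison of the conditions, of which only positions were used, placed 26 of the 107 control peaks at a site higher in control cells (24.3%, 17.2% to 33.2%), where 51.2% of all control peaks overlap such a site. On the rest of chromosome 19 the share was 26.7%. Of the lost peaks 14 of 28 were at such a site, and of the kept peaks 12 of 79. A loss by overlap and a site called lower after treatment are different calls, which coincided in 50% of the lost peaks of the clusters (32.6% to 67.4%), in 63.5% of those on the rest of chromosome 19 and in 78.7% of those of the other chromosomes. Of the 95 peaks of treated cells 11 overlapped a site higher in treated cells (11.6%, 6.59% to 19.6%), where 7.25% of all do. Of the 16 arisen peaks 4 were among them (25%, 10.2% to 49.5%), at ZNF134, ZSCAN1, SMIM17 and SLC27A5, where 40.8% of all arisen peaks of the list were.

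The starts of the genes for the partners that KRAB zinc-finger proteins act through were examined as well. Of 17 listed genes 4 had a control peak within 1 kb of the start, where 17.0% of the non-ZNF coding genes on other chromosomes had one. The peaks were kept at PPHLN1, a subunit of the HUSH silencing complex, at CHD4, the helicase of the NuRD complex, and at the DNA methyltransferase gene DNMT3A. The peak was lost at ATF7IP, which encodes a cofactor of SETDB1, and a peak arose at SETDB1 itself. TRIM28 lies within 19q13.43, at chr19:59055431-59062089 on the plus strand, and had no peak at its start in either list. The nearest control peak, 23856 bp away in ZBTB45, was kept.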

How the data were processed

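CTCF ChIP-seq and input libraries of control and CBL0137-treated HT1080 cells were assigned to conditions by their labels. According to the submitters' notes and the study's methods, 75-base reads were aligned by Bowtie2 2.2.3 to hg19. The authors discarded every read with a second alignment, filtered duplicates with SAMtools 1.5 and called peaks with PePr on both replicates of a condition together. The deposited fold enrichment is a ratio of ChIP to input computed by the authors. The lists have no header, so the fold enrichment and the FDR were identified by column position. The FDR of each peak is given as deposited by the authors, whose adjustment method is not named. Peaks in repeated sequence can be missing because of the alignment filter, and the uniqueness of exact 75-base stretches is an upper limit on what it kept. From the lists of the authors' direct comparison only site positions were used, with an overlap of at least 1 bp, and their folds and p-values of one condition over the other were left out. The lists hold no read counts, so the depth per library was not analysed here, and neither were the signal tracks. The lists hold no expression values, and the labelled line was not checked against marker genes.

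Members and gene lists were chosen with earlier results of these data known. Places and starts followed GENCODE v44lift37 on GRCh37. A peak was placed by its centre, in the order ZNF gene start (within 1 kb), start of another coding gene, last exon of a ZNF gene (transcript with the longest coding sequence), elsewhere in a ZNF gene, in another coding gene, or between genes. Named peaks were the up to 5 kept and 5 lost of highest fold enrichment at ZNF starts and in last exons, the strongest and the strongest lost peak of each cluster, the 3 strongest kept and lost between genes, and arisen peaks at ZNF starts or last exons. Others were named after their values were seen. GC content was taken over 500 bp. Shares carry Wilson and differences Newcombe 95% intervals, and no p-value was computed, because peaks are not replicates. Overlap and motif routines were tested on simulated data. Python 3.11.15, numpy 2.4.6, pandas 2.3.3, pysam 0.24.0 and matplotlib 3.10.9 were used.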

Additional observations from a re-analysis of the deposited data

How the results depend on the processing

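Of 80 values computed under other settings for 14 results, 62 stayed within the interval of the share or within 1.5 times the count given above. Shares of few peaks have wide intervals, so that a lost share of 50% in last exons still counted as within that of 1 in 4 (4.56% to 69.9%). The tally is therefore no measure of stability for these. With an overlap of over 50% of the larger peak, 37.4% of the control peaks of the clusters were lost and 28 peaks arose. Other overlap rules (over 25%, or centres at most 200 bp apart) left the counts at 28 lost and 16 arisen. With an FDR of at most 1e-05 in both lists, 66 control and 57 treated peaks remained, 9 arose, and 5, 2 and 23 control peaks lay at ZNF starts, in last exons and between genes. With the control list shortened by fold enrichment to the length of the treated list, 12 of 73 were lost (16.4%). This setting drops the weakest control peaks, which were lost most often. It was computed for the clusters alone and is not set against other peaks. Without 19q13.43, 53 control, 43 treated and 8 arisen peaks remained. With symbols beginning with ZNF alone, 2 last exons held a control peak and 0% of these were lost. Control peaks overlapped by a differential site over more than 50% of their length numbered 16. A core was present in 17.8% of control peaks with no mismatch and in 91.6% with at most 2. With ranks taken among kept peaks alone, a setting chosen after seeing the data, 46 kept peaks ranked higher in treated cells where 30 did within the whole lists. The causes were not tested. Leaving out 19p12 lowered the lost share to 21.7%, and the difference from the rest of chromosome 19 at equal fold enrichment was 2.73 points with 5 groups. No paired analysis was possible because each list pools its replicates, and no replicate could be left out for the same reason. With 6 to 54 control peaks per cluster, the shares of single clusters are imprecise.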
